A study of Mus musculus with 16 samples.

Results

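The Fc gamma receptors are the macrophage surface receptors for IgG. The group described here holds 5 mouse genes, chosen by name: the IgG receptor genes Fcgr1, Fcgr2b, Fcgr3 and Fcgr4, and Fcer1g. Fcer1g encodes the signalling chain shared by Fcgr1, Fcgr3 and Fcgr4, but not by Fcgr2b. They are 5 of the 12393 genes measured by a probe set with a single gene symbol, and they are read by 8 of the 22690 probe sets on the array, 4 for Fcgr2b and 1 for each of the others.

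Each of the 16 mice gave 1 sample of glioma macrophages, whose RNA was hybridised to an Affymetrix 3' array. The BLZ945 group held 8 mice that received BLZ945, which blocks the kinase of the CSF-1 receptor, by daily gavage for 7 days (5 females and 3 males, 4 aged 13.14 weeks and 4 aged 11.29 weeks). The Vehicle group held 8 mice that received captisol on the same schedule (4 females and 4 males, 4 aged 11.29 weeks, 2 aged 11.43 weeks and 2 aged 12.29 weeks). The labels give the dose without a body weight. All 16 mice were Nestin-Tv-a;Ink4a/Arf-/- animals of mixed background, so the controls lacked Ink4a/Arf as well. In this model the Nestin promoter drives the viral receptor Tv-a, and tumours began from injected DF-1 cells, a chicken fibroblast line, that shed the virus RCAS-PDGF-B-HA. Labelled initial tumour volumes, given without a unit, ran from 41.3 to 132.3 in the BLZ945 mice and from 11.9 to 27.3 in the 6 Vehicle mice that have one, so that volume and agent cannot be told apart. The cells were CD11b-positive and Gr1-negative, and they were incubated with Fc Block, a reagent that occupies Fc gamma receptors on the cell surface, before staining. The arrays read RNA and not receptor protein.

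The CSF-1 receptor gene Csf1r averaged 13.66 ± 0.12 log2 in BLZ945 macrophages and 13.61 ± 0.14 log2 in Vehicle macrophages (SD, n = 8 each), near the highest values on the arrays, whose maxima ran from 13.87 to 14.34 log2. The mean of the 10 macrophage markers, all of them measured, was 11.57 ± 0.20 log2 in BLZ945 macrophages and 11.56 ± 0.21 log2 in Vehicle macrophages. Itgam, which encodes the sorting marker CD11b, fell by 1.17 log2 (adjusted p = 0.00807, limma). Trem2, a lipid-sensing receptor of microglia and macrophages, rose by 0.75 log2 (adjusted p = 0.0347). Of the glioma and oligodendrocyte precursor markers, 5 of 10 fell, where 5.33% of all genes did. Among them Pdgfra fell by 2.71 log2 (adjusted p = 0.000441). These samples are bulk RNA, so a smaller share of cells that carry a transcript and less of it per cell cannot be told apart.

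As background, Fc gamma receptors let macrophages bind antibody-coated cells and immune complexes. Fcgr1, Fcgr3 and Fcgr4 are activating receptors that assemble with the Fcer1g chain, whose cytoplasmic tyrosine motif recruits the kinase Syk once antibody clusters the receptors, and engulfment and an oxidative burst follow. Fcgr2b carries its own inhibitory motif, which recruits the phosphatase SHIP-1, the product of Inpp5d, and raises the threshold for activation. In mice, Fcgr1 binds single IgG2a molecules with high affinity, Fcgr4 binds IgG2a and IgG2b, and Fcgr3 is a low-affinity receptor for complexed IgG. Microglia and tumour macrophages carry activating and inhibitory receptors together, and natural killer cells, neutrophils, B cells and mast cells carry subsets of them. Fcgr2b, Fcgr3, Fcgr4 and Fcer1g are neighbours on chromosome 1 in the RefSeq gene table, and Fcgr1 is on chromosome 3.

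The promoter windows of the activating receptors Fcgr4 and Fcgr1 are shown because they hold letters of factors that macrophages and interferons are known for, and because Fcgr4 had the largest difference between the agents among the 5 genes. RefSeq windows from 250 bases before to 50 bases after a start (GRCm38.p6) matched all 5 genes, with 6 windows in all, since Fcgr3 has 2 starts. The windows were searched on both strands for GAGGAA, the core bound by the macrophage factor PU.1, for TTCNNNGAA, the gamma-activated sequence (GAS), and for the interferon-stimulated response element (ISRE), taken as GAAA repeated after any 2 bases. The lines below run 5′ to 3′ along the gene's strand, and capitals mark the matches. Fcgr4 lies at chr1:171018676-171018975 on the plus strand, and Fcgr1 at chr3:96293920-96294219 on the minus strand.
Fcgr4: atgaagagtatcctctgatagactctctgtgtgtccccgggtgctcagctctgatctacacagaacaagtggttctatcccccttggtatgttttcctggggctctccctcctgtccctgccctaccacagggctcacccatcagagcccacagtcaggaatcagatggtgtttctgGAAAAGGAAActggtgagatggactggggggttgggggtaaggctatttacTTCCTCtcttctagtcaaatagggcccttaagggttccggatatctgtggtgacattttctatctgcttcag
Fcgr1: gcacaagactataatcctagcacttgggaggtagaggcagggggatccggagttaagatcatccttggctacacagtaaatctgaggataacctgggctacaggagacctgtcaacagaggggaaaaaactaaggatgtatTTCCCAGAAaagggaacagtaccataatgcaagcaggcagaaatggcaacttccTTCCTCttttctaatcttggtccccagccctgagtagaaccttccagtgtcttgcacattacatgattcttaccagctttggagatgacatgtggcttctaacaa

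The Fcgr4 window held the ISRE letters 73 bases before the start and the PU.1 core, as TTCCTC, 22 bases before it. The Fcgr1 window held the GAS letters 109 bases before the start and the PU.1 core 55 bases before it. The Fcgr3 windows overlap, and both held the same PU.1 core, 6 and 15 bases before their starts. The Fcgr2b and Fcer1g windows held none of the 3 motifs. Of 32851 mouse promoter windows of this length, 28.3% held the PU.1 core, 8.30% the GAS letters and 3.44% the ISRE letters. These matches describe letters and are not measured binding sites.

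The comparison of the agents asks whether the IgG receptor transcripts of the sorted macrophages differed between BLZ945 and Vehicle mice. No called difference was found in any of the 5 genes: 0 of 5 passed an adjusted p of 0.05 in limma, against 7.93% of the 12393 genes (2.6% higher and 5.33% lower), and 0 of 5 had an unadjusted p under 0.05, as 2801 of the 12393 genes did. Fcgr1, Fcgr2b, Fcgr3 and Fcer1g differed by at most 0.072 log2 in either direction. Fcgr4 was 0.51 log2 lower in BLZ945 macrophages without passing the test. The median difference of the 5 genes was 0.015 log2, beside 0.074 log2 over all genes. Among all genes 322 rose and 661 fell, and the share that fell among those called was 67.2%, against 57.2% with quantile normalization repeated and 47.3% with the SD of each array as a covariate.

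Fcgr4 had a lowest value of 8.68, a median of 9.39 and a highest value of 10.89 log2 in the BLZ945 mice, against 9.57, 9.92 and 10.85 log2 in the Vehicle mice. The BLZ945 mice were lower as a group but overlapped the Vehicle mice: 5 of 8 lay below every Vehicle mouse, and 1 lay above every Vehicle mouse. That mouse was BLZ945 mouse 6, and the highest Vehicle value belonged to Vehicle mouse 2. The means were 9.53 ± 0.65 log2 in BLZ945 macrophages and 10.04 ± 0.44 log2 in Vehicle macrophages (SD, n = 8 each), a difference of -0.51 log2 (SE 0.25, adjusted p = 0.236, limma), and an exact two-sided permutation test over all 12870 labellings gave p = 0.0883. The 95% confidence interval ran from -1.04 to 0.016 log2, which is 0.487 to 1.01 times the Vehicle level. Only 10.3% of genes had a larger difference in either direction, while 91.8% had a smaller spread between mice of a group. Without BLZ945 mouse 6, the highest of its group, the difference was -0.70 log2 with an adjusted p of 0.0309, and under the 32 alternatives tried it ran from -0.70 to -0.32 log2. Leaving out a mouse because of its own Fcgr4 value is no independent test.

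Fcgr1, the high-affinity receptor, had values of 10.87, 11.01 and 11.60 log2 (lowest, median and highest) in the BLZ945 mice and 10.70, 11.09 and 11.38 log2 in the Vehicle mice. The groups overlapped, with 1 BLZ945 mouse above every Vehicle mouse and 0 below. Its difference was 0.036 log2 (SE 0.12, adjusted p = 0.876, limma), with an interval from -0.22 to 0.29 log2, or 0.859 to 1.22 times the Vehicle level. The exact permutation test gave p = 0.759.

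Fcgr3, the low-affinity activating receptor, was the steadiest of the 5 genes. Its values were 12.52, 12.78 and 12.90 log2 (lowest, median and highest) in the BLZ945 mice and 12.55, 12.68 and 12.86 log2 in the Vehicle mice. The 16 mice stayed within a narrow band, and only 0.500% of all genes had a smaller spread within the groups. The probe set lies close to the upper end of the arrays, and whether its values were compressed there was not tested. The difference was 0.072 log2 (SE 0.089, adjusted p = 0.635, limma), with an interval from -0.11 to 0.26 log2, or 0.924 to 1.20 times the Vehicle level.

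Fcer1g, the signalling chain that the activating receptors share, had 12.16, 12.41 and 12.78 log2 (lowest, median and highest) in the BLZ945 mice and 12.21, 12.55 and 12.78 log2 in the Vehicle mice. Neither group stood apart. The difference was -0.071 log2 (SE 0.12, adjusted p = 0.739, limma), with an interval from -0.33 to 0.18 log2, or 0.797 to 1.14 times the Vehicle level. With the SD of each array as a covariate it was -0.21 log2 (adjusted p = 0.142), and the differences of Fcgr1 and Fcgr2b were then 0.14 and 0.20 log2 (adjusted p = 0.440 and 0.501).

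Fcgr2b, the inhibitory receptor, had 11.53, 12.30 and 13.03 log2 (lowest, median and highest) in the BLZ945 mice and 11.999, 12.26 and 12.84 log2 in the Vehicle mice, by its brightest probe set, 1435477_s_at. The BLZ945 mice held both the lowest and the highest value of all 16. The difference was 0.015 log2 (SE 0.19, adjusted p = 0.969, limma), with an interval from -0.37 to 0.40 log2, or 0.771 to 1.32 times the Vehicle level. The other 3 probe sets of Fcgr2b gave 0.10 log2 (1455332_x_at), 0.19 log2 (1451941_a_at) and 0.11 log2 (1435476_a_at), with adjusted p-values of 0.770, 0.668 and 0.763 in limma over all probe sets. So 0 of the 8 probe sets of the group passed, where 6.72% of 22626 probe sets did (2.06% higher and 4.66% lower). Across the 16 mice, with group means taken out, the 4 Fcgr2b probe sets correlated with each other at Pearson r of 0.92 to 0.99 and with the Fcgr3 probe set at 0.16 to 0.31. Those correlations describe probe sets on shared arrays and carry no test. Whether any Fcgr2b probe set, 1435477_s_at included, also reads transcripts of other genes was not tested.

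**Figure D1:**
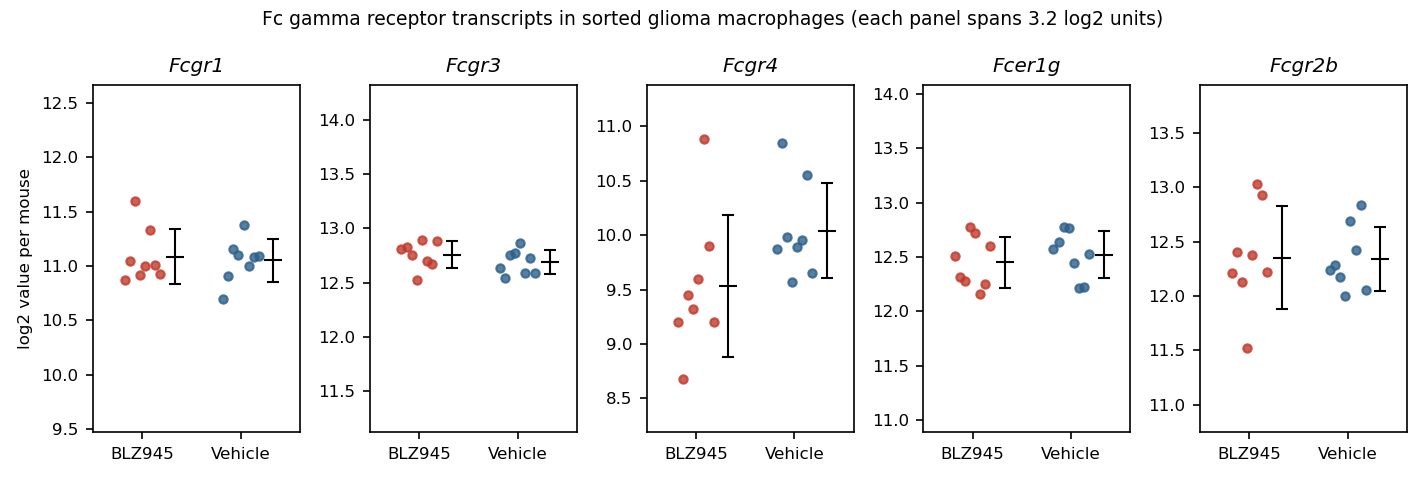
Log2 value of each of the 5 genes (1 panel each, brightest probe set) in every mouse, BLZ945 left and Vehicle right, with 8 points per group and bars for the mean ± SD. The groups overlap in all 5 panels, and the Fcgr4 panel shows 5 BLZ945 mice below every Vehicle mouse and 1 above all of them.

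Complete separation of the groups was seen in 0 of the 5 genes. Over all genes, 0.315% had every BLZ945 mouse above every Vehicle mouse, and 1.03% had every BLZ945 mouse below.

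**Figure D2:**
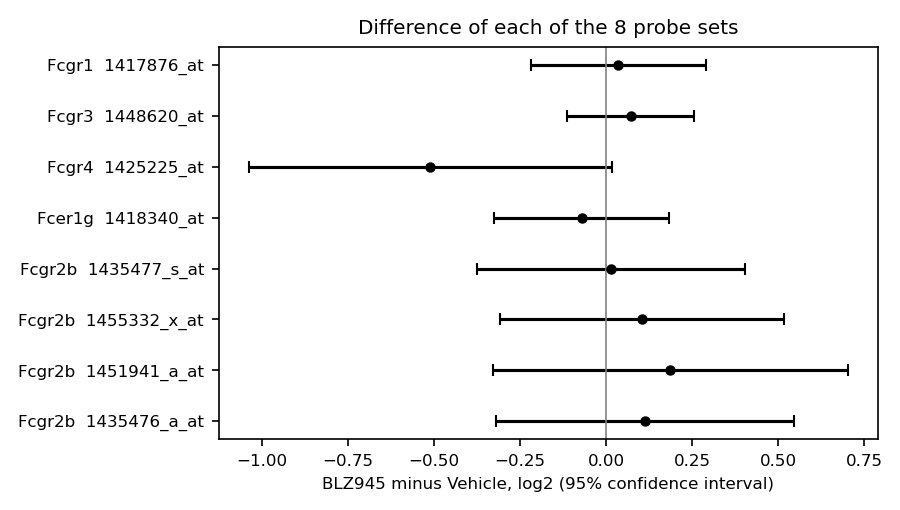
Difference between BLZ945 and Vehicle in log2 for each of the 8 probe sets, with 95% confidence intervals from limma (n = 8 mice each). All 8 intervals include 0, and that of Fcgr4, from -1.04 to 0.018 in the fit over probe sets, barely does.

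Whether the activating side changed unequally to the inhibitory side was tested per mouse, by subtracting the Fcgr2b value from that of each other gene on the same array. Probe sets differ in brightness per transcript, so the size of such a difference has no meaning of its own, and only its change between groups was read. Fcgr4 minus Fcgr2b averaged -2.82 ± 0.51 log2 in BLZ945 macrophages and -2.30 ± 0.39 log2 in Vehicle macrophages (SD, n = 8 each). The change of -0.53 log2 had p = 0.0308 in an exact two-sided permutation test and an adjusted p of 0.123 over the 4 differences tested. It did not pass that correction. The call turned on single mice: the adjusted p was 0.0472 without BLZ945 mouse 4 and 0.0354 without BLZ945 mouse 6. The corresponding changes were 0.021 log2 for Fcgr1 (exact permutation p = 0.911), 0.057 log2 for Fcgr3 (exact permutation p = 0.767) and -0.086 log2 for Fcer1g (exact permutation p = 0.771), each with an adjusted p of 0.911.

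**Figure D3:**
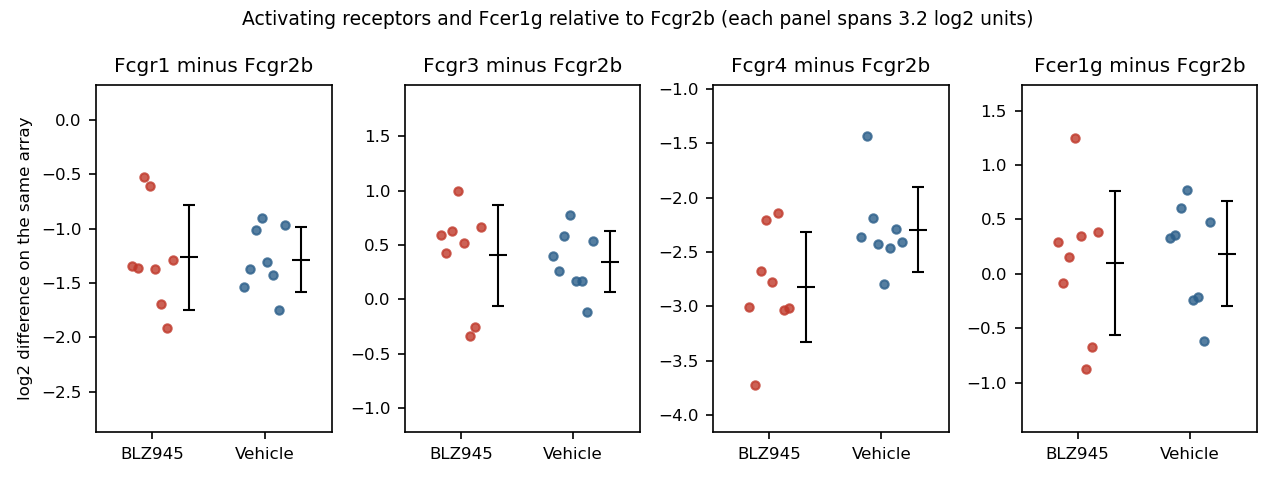
Log2 value of Fcgr1, Fcgr3, Fcgr4 and Fcer1g minus that of Fcgr2b on the same array, for 8 BLZ945 (left) and 8 Vehicle (right) mice per panel, with bars for the mean ± SD. Fcgr4 minus Fcgr2b averages -2.82 in BLZ945 and -2.30 in Vehicle mice, and the other 3 panels differ by at most 0.086 log2 between the groups.

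Sex was labelled for every mouse. In a fit with the agent as covariate, 0 of the 5 genes passed over all genes, where 0.0323% of genes did (0.0242% lower in females), and 1 of 5 had an unadjusted p under 0.05, as did 1213 of the 12393 genes. That gene was Fcgr2b, which was 0.46 log2 lower in females than in males (difference -0.46, SE 0.16, adjusted p = 0.484, limma). Its means were 12.09 ± 0.33 log2 in BLZ945 females (n = 5), 12.79 ± 0.34 log2 in BLZ945 males (n = 3), 12.22 ± 0.15 log2 in Vehicle females (n = 4) and 12.45 ± 0.38 log2 in Vehicle males (n = 4). These means are of the brightest probe set. The other female minus male differences were -0.41 log2 for Fcgr4, 0.16 log2 for Fcer1g, -0.10 log2 for Fcgr1 and -0.024 log2 for Fcgr3, with adjusted p-values from 0.559 to 0.925.

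The change with the agent was not shown to differ between the sexes for any of the 5 genes: the interaction of agent and sex had adjusted p-values from 0.983 to 0.993 in limma. Over all genes 0 passed that test, while 414 had an unadjusted p under 0.05. Fcgr4 spread unevenly between the sexes. It averaged 9.36 ± 0.17 log2 in BLZ945 females and 9.82 ± 1.11 log2 in BLZ945 males, against 9.87 ± 0.15 log2 in Vehicle females and 10.22 ± 0.59 log2 in Vehicle males. The highest and the lowest mouse of each agent were males.

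Age was examined within the BLZ945 mice, 4 of 13.14 weeks against 4 of 11.29 weeks. Of the 5 genes 0 passed, where 0.0403% of all genes did. Fcer1g averaged 12.59 ± 0.23 log2 in the older and 12.31 ± 0.15 log2 in the younger mice (difference 0.27, adjusted p = 0.385, limma). Fcgr1 averaged 10.96 ± 0.050 log2 in the older and 11.21 ± 0.32 log2 in the younger mice (difference -0.25, adjusted p = 0.453). The remaining differences were -0.18 log2 for Fcgr2b, -0.028 log2 for Fcgr3 and -0.049 log2 for Fcgr4. The slopes on log2 labelled tumour volume within BLZ945 ran from -0.20 to 0.28 log2 per doubling over the 5 genes, with adjusted p-values from 0.801 to 0.995. Over all genes 0 passed that slope test in limma, and 846 had an unadjusted p under 0.05.

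Ages above 12.29 weeks occurred only in the BLZ945 group, so the agents were also compared among mice of 11.29 weeks alone, 4 against 4. The differences were 0.072 log2 for Fcgr1, -0.044 for Fcgr2b, 0.034 for Fcgr3, -0.44 for Fcgr4 (adjusted p = 0.626, limma) and -0.099 for Fcer1g. Fewer mice enter this fit, and 89 genes in all passed in it.

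The 5 genes did not move as one unit from mouse to mouse. Among 10 pairs, with group means taken out, 1 passed the correction over the pairs: Fcgr2b and Fcer1g ran opposite to each other over the 16 mice (Pearson r = -0.73, permutation p = 0.00143, adjusted p = 0.0143, and Spearman rho = -0.68, permutation p = 0.00721, adjusted p = 0.0721). Without the 2 mice farthest from the median of Fcgr2b, r was -0.61 (permutation p = 0.0299, adjusted p = 0.208). The pair then no longer passed the correction, with fewer mice and a narrower range of Fcgr2b. The sign was the same in each group, with r = -0.74 in the 8 BLZ945 mice (permutation p = 0.0292, adjusted p = 0.292) and r = -0.76 in the 8 Vehicle mice (permutation p = 0.0319, adjusted p = 0.184). Fcgr2b and Fcgr4 had r = 0.59 (permutation p = 0.0336, adjusted p = 0.168), with rho = 0.58 (permutation p = 0.027, adjusted p = 0.135). Without 2 mice r was 0.50. The correction covered these 10 pairs alone, and pairs of other genes were not counted beside them.

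A property of the arrays moved with some of these genes, in a comparison added after the plan. How many of all genes moved as closely with it was not counted. The SD of all values on an array ran from 2.22 to 2.43 log2 in the BLZ945 mice and from 2.30 to 2.49 log2 in the Vehicle mice. With group means taken out, Fcer1g correlated with it at r = -0.80 over 16 mice (permutation p = 0.00096, adjusted p over 5 genes 0.0048, and rho = -0.76, permutation p = 0.0017, adjusted p = 0.0085), and r was -0.72 without the 2 arrays farthest from the median SD. Fcgr2b had r = 0.61 (permutation p = 0.0187, adjusted p = 0.0312) with rho = 0.54, and 0.43 without those 2 arrays (adjusted p = 0.214). Fcgr1 had r = 0.62 (permutation p = 0.0144, adjusted p = 0.0312) with rho = 0.61, and 0.60 without them (adjusted p = 0.0609). Fcgr3 and Fcgr4 had r of 0.32 and 0.16. The part of the array SD in the opposite course of Fcgr2b and Fcer1g was not tested.

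The genes most alike to each member over the 16 mice, with group means taken out, were picked by Pearson r and are a description. Fcgr4 ran most closely with Cd274, which encodes the T cell inhibitory ligand PD-L1 (r = 0.95), with Pdcd1lg2, which encodes its relative PD-L2 (r = 0.90), and with Tmem106a (r = 0.90). BLZ945 mouse 6 and Vehicle mouse 2, the highest of their groups in Fcgr4, were also the highest of their groups in Cd274, at 10.54 and 9.56 log2, and in Pdcd1lg2, at 7.92 and 7.73 log2. The same mice were the highest of their groups in the mean of 8 natural killer cell markers, at 7.37 and 6.08 log2. The group ranges of that mean were 4.63 to 7.37 log2 in BLZ945 mice and 4.55 to 6.08 log2 in Vehicle mice. BLZ945 mice 1 and 2 were next in that mean, at 6.11 and 6.09 log2, and had Fcgr4 values of 9.20 and 8.68 log2, below the Vehicle range. BLZ945 mouse 6 and Vehicle mouse 2 were also highest in other list means, though not in all. These were the mast cell and basophil markers (4.88 and 4.55 log2) and the complement genes and receptors (9.63 and 9.47 log2). The factors reported to control Fc gamma receptor transcription were another, at 9.42 log2 in both mice. In Fcgr3 the 2 mice had 12.70 and 12.55 log2, the latter the lowest Vehicle value. The part of natural killer cells, or of other cells, in the Fcgr4 values was not tested.

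**Figure D4:**
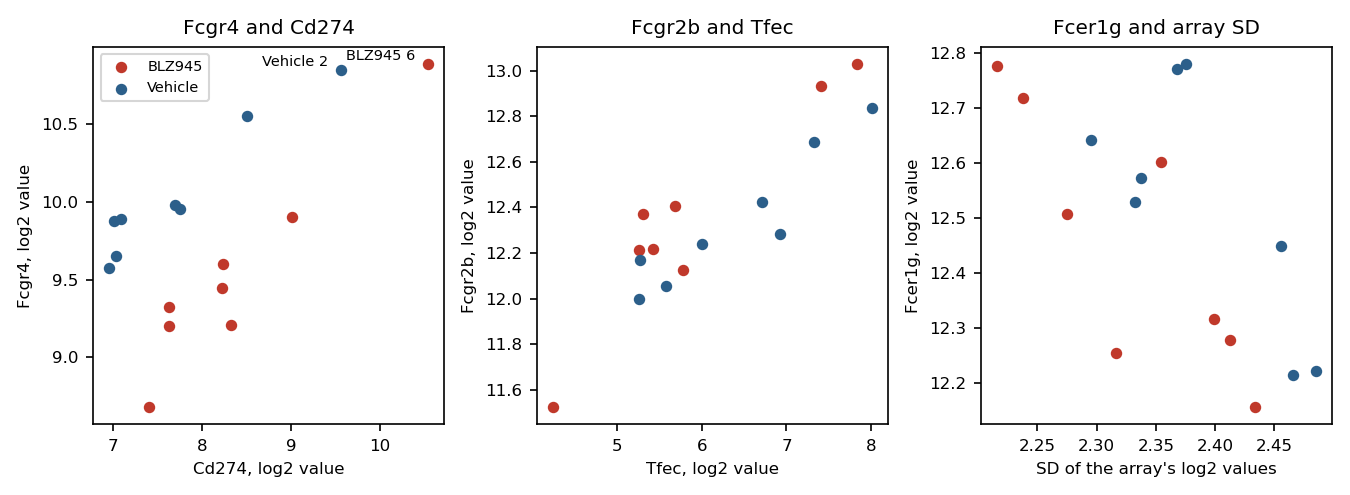
Log2 values per mouse of Fcgr4 against Cd274 (left), Fcgr2b against Tfec (middle) and Fcer1g against the SD of the array's log2 values (right), with 8 BLZ945 mice in red and 8 Vehicle mice in blue. BLZ945 mouse 6 and Vehicle mouse 2 stand at the upper right of the Cd274 panel, at 10.54 and 9.56 log2 in Cd274, and Fcer1g is lower on arrays with a larger SD.

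Fcgr2b ran most closely with Tfec (r = 0.93), a macrophage transcription factor of the Mitf family, then with Slc31a2 (r = 0.91) and with the prostaglandin E2 receptor gene Ptger2 (r = 0.90). Fcer1g ran most closely with Lamtor4 (r = 0.95), a subunit of the lysosomal Ragulator complex, with Hs1bp3 (r = 0.94) and with the mitochondrial ATP synthase subunit gene Atp5g2 (r = 0.94). For Fcgr1 the closest genes were Stambp (r = 0.88), a deubiquitinase, Sdf4 (r = 0.87) and Gpr89 (r = 0.86). For Fcgr3 they were the ceramide kinase gene Cerk (r = 0.88), Fahd1 (r = 0.82) and Nicn1 (r = 0.81).

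The genes around the receptors were counted in 8 lists, of which no list was tested as a set. Over all genes, 2.6% rose and 5.33% fell past the threshold, and a count near those shares sets no list apart. The list of other Fc receptors held genes such as the neonatal receptor and the IgE receptor chains. It also held the signalling chains Tyrobp and Cd247, and 0 of 12 measured genes passed. Nearest were Fcer1a, the binding chain of the high-affinity IgE receptor, at 0.54 log2 (adjusted p = 0.0545, limma), and Fcer2a at 0.54 log2 (adjusted p = 0.0920). Both were dim: Fcer1a averaged 3.18 log2 in BLZ945 and 2.65 log2 in Vehicle macrophages, and Fcer2a 4.78 and 4.25 log2. The median difference of this list was 0.17 log2, beside 0.074 over all genes.

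The list of receptors taken to signal through the Fcer1g chain held the largest change in these lists. Of 7 measured, 1 rose and 2 fell, with a median of -0.44 log2. That median is the difference of Clec4a2. Whether Clec4a2 and Pilrb1 (-0.26 log2) use the chain was not checked, so the count and median may include receptors that do not. Clec4n, which encodes the fungal lectin receptor Dectin-2, averaged 5.94 ± 0.40 log2 in BLZ945 macrophages and 8.31 ± 0.62 log2 in Vehicle macrophages (SD, n = 8 each), a fall of 2.38 log2 (adjusted p = 1.54e-05, limma). Its groups did not overlap, while the chain it signals through, Fcer1g, differed by -0.071 log2. Clec4e, the receptor Mincle, fell by 1.05 log2 (adjusted p = 0.0294). Il3ra, the interleukin-3 receptor alpha chain, rose by 0.54 log2 (adjusted p = 0.0119). Both were dim, with means under the array medians, which ran from 5.74 to 5.87 log2. Clec4e averaged 4.59 log2 in BLZ945 and 5.64 log2 in Vehicle macrophages, and Il3ra 5.33 and 4.79 log2.

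Among genes of activating signalling downstream of the receptors, 1 of 25 rose and 0 fell, with a median of 0.014 log2. The riser was Blnk, an adaptor that Syk phosphorylates, at 0.68 log2 (adjusted p = 0.0156, limma). Among inhibitory signalling genes 2 of 19 rose and 0 fell. They were Cd300a, an inhibitory lipid receptor, at 0.73 log2 (adjusted p = 0.0108), and Sirpa, the receptor for CD47, at 0.43 log2 (adjusted p = 0.0395).

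Of the phagocytic cup and actin genes 1 of 36 rose and 2 fell, with a median of -0.16 log2. Myo1e, a membrane-bound myosin, rose by 0.93 log2 (adjusted p = 0.00536, limma). Cfl1, the actin-severing cofilin, fell by 0.53 log2 (adjusted p = 0.000779), and Marcksl1, an actin-binding membrane protein, fell by 0.99 log2 (adjusted p = 0.0406). Of the phagocyte oxidase genes 0 of 5 passed. Cyba differed by 0.33 log2 (adjusted p = 0.0840) and Cybb, its catalytic partner, by -0.93 log2 (adjusted p = 0.179).

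Complement genes moved both ways, 2 of 13 rising and 2 falling. C3ar1, the C3a receptor, rose by 0.72 log2 (adjusted p = 0.00672, limma), and Itgax, the CD11c integrin chain, rose by 1.06 log2 (adjusted p = 0.0255). Cfp, the complement regulator properdin, averaged 5.91 ± 0.85 log2 in BLZ945 and 7.31 ± 0.51 log2 in Vehicle macrophages (SD, n = 8 each) and fell (adjusted p = 0.00883), and Itgam, the alpha chain of complement receptor CR3, fell as given above. Of the genes reported to control Fc gamma receptor transcription, 3 of 23 rose and 1 fell, with a median of 0.12 log2. Mitf rose by 1.07 log2 (adjusted p = 0.00265), the interferon gamma receptor chain gene Ifngr2 by 0.75 log2 (adjusted p = 0.0165) and Irf8 by 0.49 log2 (adjusted p = 0.0144), while the interleukin-4 receptor gene Il4ra fell by 0.94 log2 (adjusted p = 0.00180).

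**Figure D5:**
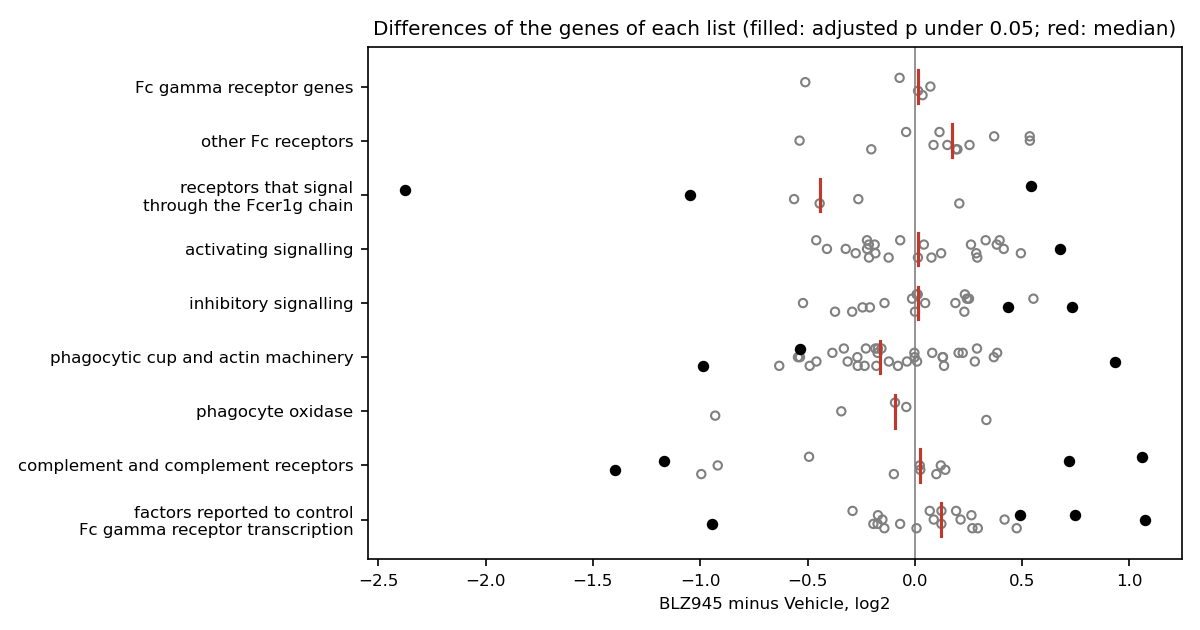
Difference between BLZ945 and Vehicle in log2 for each measured gene of the 5 members and of the 8 lists, 1 row per list, with filled points for genes at an adjusted p under 0.05 and a red bar at each row's median. The 5 members lie between -0.51 and 0.072, and Clec4n is the lowest gene at -2.38.

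Among mice of 11.29 weeks, 4 against 4, Clec4n alone of the list genes passed (-2.38 log2, adjusted p = 0.0103, limma). Differences of other genes that no longer passed in this smaller fit included 1.10 log2 for Mitf, 0.71 for Blnk, 0.71 for Cd300a, -1.13 for Il4ra and 0.67 for Irf8. Those of Cfp (-0.39 log2, adjusted p = 0.585), C3ar1 (0.42 log2, adjusted p = 0.353) and Marcksl1 (-0.57 log2, adjusted p = 0.353) were smaller than over all 16 mice. With the SD of each array as a covariate Clec4e (adjusted p = 0.0611) and Trem2 (adjusted p = 0.0725) no longer passed, and Fcer1a did (adjusted p = 0.0361). Clec4e lost its call when any of 8 mice was left out (Vehicle 1, 5, 6 and 7, BLZ945 3, 5, 7 and 8), with adjusted p-values from 0.0503 to 0.0626. Sirpa lost it for 10 mice (Vehicle 1, 5, 6, 7 and 8, BLZ945 1, 3, 5, 7 and 8; up to 0.0847), Marcksl1 for 11 (Vehicle 1, 2, 3, 5, 6 and 8, BLZ945 3, 5, 6, 7 and 8; up to 0.0785), Trem2 for 9 (Vehicle 1, 2, 6 and 7, BLZ945 1, 3, 4, 5 and 8; up to 0.0737) and Itgax for 4 (Vehicle 1, 6 and 8, BLZ945 5; up to 0.0562). Fcer1a gained a call without Vehicle 2, BLZ945 4 or BLZ945 7 (down to 0.0414), and Fcer2a without Vehicle 4 or BLZ945 6 (down to 0.0372).

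Markers of other cells that carry Fc receptors were read as list means, and the part of those cells in the values of the 5 genes was not tested. Of all genes, 2.6% rose and 5.33% fell past the threshold. Neutrophil markers averaged 5.44 ± 0.24 log2 in BLZ945 and 5.48 ± 0.77 log2 in Vehicle samples (ranges 5.13 to 5.80 and 4.43 to 6.20), and 0 of 8 passed. Natural killer cell markers averaged 5.48 log2 in BLZ945 and 4.94 log2 in Vehicle samples, and 0 of 8 passed. Their differences went both ways, from -0.65 to 1.83 log2. B cell and plasma cell markers averaged 5.21 log2 in BLZ945 and 4.89 log2 in Vehicle samples (ranges 4.94 to 5.57 and 4.66 to 5.54), and 0 of 9 passed. Differences of these markers ran from -0.26 to 1.75 log2. Mast cell and basophil markers averaged 4.67 log2 in BLZ945 and 4.28 log2 in Vehicle samples (ranges 4.39 to 4.88 and 4.07 to 4.55), and 2 of 11 rose. They were the proteases Cpa3, by 1.12 log2 (adjusted p = 0.0153, limma), and Cma1, by 0.78 log2 (adjusted p = 0.00125). Both were dim: Cpa3 averaged 5.28 log2 in BLZ945 and 4.16 log2 in Vehicle samples, and Cma1 5.27 and 4.48 log2. None of the dendritic cell, T cell or endothelial markers passed, at 0 of 8, 0 of 7 and 0 of 8. The T cell markers averaged 4.32 log2 in BLZ945 and 3.97 log2 in Vehicle samples, with differences from 0.13 to 0.50 log2, all above 0. No value on these arrays is an absence, since detection calls were not used here.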

How the data were processed

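The 16 arrays, 1 per mouse, hold log2 values per probe set, used as deposited. Per the submitters' processing notes, GCOS 1.4 and RMA were used by the authors, without the role of each. The RMA version was not given in the sources used here, nor was a build. As a method, RMA normalizes across arrays and compresses differences of dim probe sets. The number of arrays limits the precision.

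Of 22690 probe sets, 20393 have 1 gene symbol in the platform annotation, 691 have several and 1606 have none. A RefSeq gene table held 20364 of the 20393 and altered 0 symbols. The brightest probe set by mean stood for each of 12393 genes and was tested with limma 3.58.1 in R 4.3.3, BLZ945 minus Vehicle with no covariate, and called at a Benjamini-Hochberg adjusted p under 0.05 over all genes. Adjusted p-values come from limma unless a permutation test is named. All 22626 probe sets that are not array controls were fitted likewise. Single values were tested by exact permutation, and pairs by 100000 permutations within groups (SciPy 1.17.1), all two-sided. The highest correlation between arrays was 0.991, so none was counted as a repeat. The labels give 1 mouse per sample, but litters are not stated.

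The members and lists were chosen with earlier results of these data known. Genes were named by a rule: all members, up to 4 called genes of each list with the smallest p (2 where none was called), and the 3 genes most alike to each member. Clec4a2, Pilrb1, Tyrobp and Cd247 are named besides, to say what their lists held. Of the marker lists only called genes and Csf1r are named. The fit was checked on simulated data. Alternatives changed the probe set choice, the filter, the normalization, the eBayes setting, array weights, covariates and the mice included.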

Additional observations from a re-analysis of the deposited data

Results flagged for a closer look

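In 4 cases a value stood apart from the other 7 mice of its group by Dixon's test at 95%. In Vehicle mouse 2, Fcgr4 minus Fcgr2b was -1.44 log2, above the other Vehicle mice, and the mean of the natural killer cell markers was 6.08 log2 and that of the B cell and plasma cell markers 5.54 log2, both above the other Vehicle mice. In Vehicle mouse 8, the mean of the phagocytic cup and actin genes was 9.21 log2, below the other Vehicle mice. In all, 58 groups of 8 values were tested, and chance flags about 5% of groups.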

How the results depend on the processing

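Under the 32 alternatives tried for each gene, Fcgr4 stayed below 0 throughout and passed only without BLZ945 mouse 6. Fcgr1, Fcgr2b, Fcgr3 and Fcer1g passed under none, and their signs changed as follows. With age cohort as a covariate, and among mice of 11.29 weeks, Fcgr2b was -0.044 and its probe set 1451941_a_at -0.028. With log2 volume as a covariate (14 mice), Fcgr1 was -0.13, Fcgr2b -0.85, Fcgr3 -0.13, Fcer1g 0.35, Marcksl1 0.024, C3ar1 -0.15, Mitf -0.0023 and Csf1r -0.021. In females Fcgr2b was -0.13 and Fcer1g 0.052. Against Fcgr2b, Fcer1g was 0.18 in females, Fcgr1 -0.32 and Fcgr3 -0.33 in males, and with the mean of probe sets Fcgr1 was -0.069 and Fcgr3 -0.032. With quantile normalization repeated, the age difference of Fcgr4 was 0.050 and the volume slope of Fcgr1 -0.036. Between members, r was -0.078 for Fcgr1 and Fcgr3 in BLZ945 mice, -0.21 for Fcgr1 and Fcgr4 in Vehicle mice and -0.0083 for Fcgr2b and Fcgr3 without 2 mice. The count of pairs past the correction was 0 in BLZ945 mice, in Vehicle mice and without 2 mice.

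The count of changed genes was 983, and 1521 over every probe set, 215 with age cohort, 323 with sex and age cohort, 1644 with array SD and 15 with volume as covariates, 89 among mice of 11.29 weeks, 393 in females and 2 in males. List genes past the threshold numbered 1 among mice of 11.29 weeks. The sex count of 4 was 10 over every probe set and 1 without dim genes, and the age count of 5 was 1 with the mean of probe sets and 1 without dim genes. Leaving out each mouse gave 709 to 1187 changed genes, 3 to 14 for sex, 0 to 16 for age, 0 to 1 for the members' probe sets and 0 to 1 for the differences against Fcgr2b. For single values it gave, for BLZ945 minus Vehicle, -0.038 to 0.083 for Fcgr1, -0.082 to 0.13 for Fcgr2b, -0.0052 to 0.22 for its probe set 1455332_x_at and -0.70 to -0.39 for Fcgr4. Against Fcgr2b it gave -0.085 to 0.11 for Fcgr1, -0.027 to 0.16 for Fcgr3 and -0.25 to 0.053 for Fcer1g. For sex it gave -0.048 to 0.0028 for Fcgr3, and for the interaction -0.068 to 0.17 for Fcgr1 and -0.69 to 0.42 for Fcgr4. For age it gave -0.40 to 0.064 for Fcgr2b, -0.078 to 0.047 for Fcgr3 and -0.34 to 0.40 for Fcgr4. For the volume slope it gave -0.13 to 0.12 for Fcgr1, -0.51 to 0.0093 for Fcgr4 and -0.25 to 0.010 for Fcer1g.

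Replicate numbers were taken not to pair the mice, an assumption that correlations of expression cannot settle. With group means taken out, 5 of 8 same-numbered pairs correlated above 0.1 (range -0.48 to 0.39). Of the BLZ945 mice, 2 of 8 correlated best with their own number. With the replicate block 872 genes passed, and Fcgr4 had an adjusted p of 0.255. Signal over background was not available, so dim probe sets limit the small differences.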
